A study of Homo sapiens with 6 samples.

Results

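Transcripts of 9 genes of the insulin-like growth factor (IGF) axis were compared between PC3 cells carrying control short hairpin RNA (shRNA) and PC3 cells carrying shRNA against VprBP. The genes were taken by symbol from the deposited table: the binding protein genes IGFBP2, IGFBP3, IGFBP4 and IGFBP6, the receptor genes IGF1R, INSR and IGF2R, and the docking protein genes IRS1 and IRS2. All 9 were among the 12227 listed genes, each under a single identifier. PC3 is an established human prostate cancer cell line. The labels give the genotypes as WT for 3 control libraries and VprBP knockdown for 3 libraries, all from cells grown in DMEM with fetal bovine serum and antibiotics. They give neither the hairpin sequences nor what the numbers 1 to 3 stand for, nor whether the cells were a clone or a pool. Each p-value thus reflects the spread among these libraries alone, and that spread may be technical.

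IGF1 and IGF2 are secreted growth factors that bind IGF1R, a receptor tyrosine kinase, and forms of the closely related insulin receptor, INSR. The activated receptors phosphorylate IRS1 and IRS2, which recruit PI3-kinase and so switch on AKT and mTOR. IGF2R has no kinase activity: it carries IGF2 and enzymes tagged with mannose 6-phosphate to the lysosome. The IGFBPs hold IGFs outside the cell and can block or prolong their action, and several also bind cell-surface partners directly. Serum itself supplies IGFs.

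Values are the authors' scaled signal, in which the listed genes of a library had an upper quartile near 79 and 1 read was worth between 0.0254 and 0.0439. The libraries held between 22981883 and 39633903 estimated reads over listed genes. The 9 genes were covered by 315 to 7294 estimated reads per library, for which the largest relative counting error was 5.63%. DCAF1, which encodes VprBP, had values of 79.4, 78.5 and 78.7 in control and 38.5, 41.1 and 40.2 in knockdown libraries, so that 50.6% of the control level remained (log2 fold change -0.97, SE 0.05, limma adjusted p = 3.56e-11). The epithelial markers KRT8, KRT18, KRT19, EPCAM and CDH1 had control means between 251 and 825. Of 6 listed epithelial and prostate markers, 4 rose and 1 fell. KRT8 rose 1.64-fold and KRT18 1.52-fold, and the part of these markers in the results on the IGF axis was not tested. Of 9 stromal markers only COL1A1 was listed, at 24.4 and 24.7 in control and knockdown cells, and of 8 leukocyte markers only CD68, at 26.3 and 26.4, with no call for either (limma adjusted p = 0.951 and 0.938). The remaining stromal and leukocyte markers, and the prostate genes KLK3 and FOLH1, were not analysed here. In such bulk samples, fewer cells of a type and less RNA per cell cannot be told apart.

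IGFBP3 rose, IGFBP2 fell, and all 3 receptor genes fell, while the docking protein genes moved in opposite directions. Of the 9 genes, 4 were called higher (IGFBP3, IGFBP4, IGFBP6, IRS1) and 5 lower (IGFBP2, IGF1R, INSR, IGF2R, IRS2) at a limma adjusted p under 0.05. In the same test 60.9% of all listed genes were called, 33.0% higher and 27.8% lower, so a call by itself does not set a gene apart in this comparison. The control and knockdown libraries did not overlap for any of the 9 genes, as was the case for 64.8% of all genes. The sizes of the differences varied more. The median absolute log2 fold change was 0.62 over the 9 genes and 0.21 over all listed genes. A call with at least a 1.5-fold difference on the log2 scale applied to 5 of the 9, namely IGFBP2, IGFBP3, IGF1R, INSR and IRS2, and to 11.6% of all listed genes. The 9 genes were chosen with earlier results of these data known, so these comparisons of size do not set the axis apart from other genes. Limma adjusted p-values lay between 1.46e-14 for IGFBP3 and 0.00648 for IRS1.

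**Figure D1:**
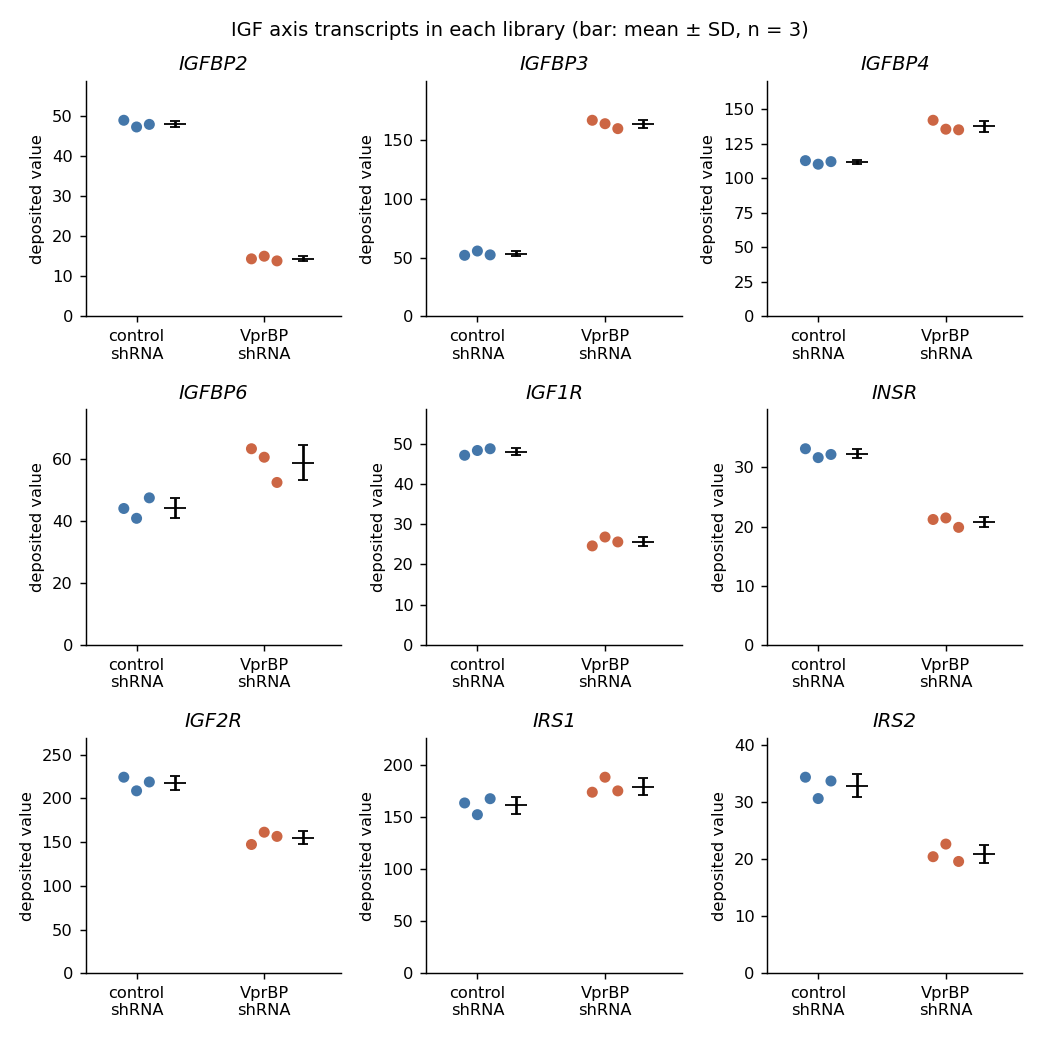
Deposited value (vertical axis, from 0) of each gene in the 3 control (blue) and 3 VprBP shRNA (orange) libraries, with the mean ± SD of each group as a black bar beside the points. The groups do not overlap in any panel, and relative to the control level the groups lie farthest apart for IGFBP3 and IGFBP2 and closest for IRS1.

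The promoter sequences of 4 members are shown because these genes had the largest rise (IGFBP3) and the largest fall (IGFBP2) of the members, or as examples picked after the motif search (IGF2R and IRS2). Each line gives the 250 bases before the RefSeq start, read 5′ to 3′ on the gene's strand, from the GRCh38.p14 promoter table. Capitals mark the searched motifs: the GC box GGGCGG, the TATA box TATAAA, the E-box CACGTG, the insulin response element core TGTTTTG and the forkhead site GTAAACA. Both strands were searched, and neighbouring GC boxes can overlap.
IGFBP3 (chr7:45921273-45921522, minus strand): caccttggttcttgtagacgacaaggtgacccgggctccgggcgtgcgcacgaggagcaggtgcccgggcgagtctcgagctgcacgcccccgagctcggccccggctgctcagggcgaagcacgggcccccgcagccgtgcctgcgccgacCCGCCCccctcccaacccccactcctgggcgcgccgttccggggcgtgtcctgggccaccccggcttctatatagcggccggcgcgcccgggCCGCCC
IGFBP2 (chr2:216633170-216633419, plus strand): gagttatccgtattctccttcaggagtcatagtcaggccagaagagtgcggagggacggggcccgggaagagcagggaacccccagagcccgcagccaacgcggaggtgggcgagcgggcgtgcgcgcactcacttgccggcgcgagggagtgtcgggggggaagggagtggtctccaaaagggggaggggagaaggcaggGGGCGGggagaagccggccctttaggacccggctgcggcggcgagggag
IGF2R (chr6:159968832-159969081, plus strand): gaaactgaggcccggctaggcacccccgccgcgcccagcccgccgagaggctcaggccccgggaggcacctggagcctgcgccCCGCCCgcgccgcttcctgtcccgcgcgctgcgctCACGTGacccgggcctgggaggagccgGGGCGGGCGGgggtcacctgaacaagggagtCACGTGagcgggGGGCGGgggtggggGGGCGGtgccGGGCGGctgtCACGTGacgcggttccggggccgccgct
IRS2 (chr13:109786584-109786833, minus strand): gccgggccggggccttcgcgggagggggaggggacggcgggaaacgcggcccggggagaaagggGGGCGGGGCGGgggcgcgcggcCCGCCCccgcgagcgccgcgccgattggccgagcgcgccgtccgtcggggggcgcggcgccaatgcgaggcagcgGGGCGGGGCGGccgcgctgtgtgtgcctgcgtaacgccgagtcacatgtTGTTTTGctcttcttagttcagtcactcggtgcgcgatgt

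The 4 windows differed in their motif content. The IGF2R window held 3 copies of CACGTG, beginning 132, 74 and 28 bases before the start, and 6 GC boxes. CACGTG was found in 6.32% of the 34943 promoter windows of this length and in no other window of a member. The IRS2 window held 5 GC boxes and 1 copy of TGTTTTG, beginning 40 bases before the start, a string present in 4.31% of all windows. The IGFBP3 window held 2 GC boxes, and the IGFBP2 window shown, the one at the second of 3 RefSeq starts, held 1. The IGFBP2 window at the first start, where the listed span of the gene begins, also held 1. That at the third start held 0, the only member window without a GC box. GC boxes were present in 42.5% of all windows and in every window of the other 5 members. TATAAA was found only in the IGFBP4 window (10.8% of all windows) and GTAAACA only in that of IGFBP6 (2.98%). Among the members that rose and those that fell, GC boxes were the single searched motif that recurred. These matches describe letters in a window and not sites in use.

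The largest rise was that of IGFBP3, the main carrier of IGFs in blood. Its values were 51.9, 55.6 and 52.3 in control libraries and 167, 164 and 160 in knockdown libraries. Every knockdown library was about as high as the others, and the lowest of them lay 104 above the highest control. The mean went from 53.3 ± 2.0 to 163 ± 3.57 (SD, n = 3 each), a 3.06-fold rise (log2 fold change 1.61, SE 0.04, limma adjusted p = 1.46e-14). Only 1.29% of listed genes had a larger absolute log2 fold change. IGFBP3 (ENSG00000146674.16) spans 45912245 to 45921874 of chromosome 7, minus strand (hg38).

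IGFBP2, whose protein carries an integrin-binding RGD motif, showed a change of similar size in the other direction. It was at 48.8, 47.2 and 47.8 in control libraries and at 14.3, 15.0 and 13.8 in knockdown libraries. The values of a group lay close together, and 30.0% of the control level remained. Group means were 47.9 ± 0.841 for control and 14.4 ± 0.585 for knockdown (SD, n = 3 each), which is 3.33-fold lower (log2 fold change -1.70, SE 0.06, limma adjusted p = 9.01e-13). A larger absolute change was seen for 1.15% of listed genes. IGFBP2 (ENSG00000115457.10) spans 216632828 to 216664436 on the plus strand of chromosome 2 (hg38).

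The other binding protein genes rose by less. IGFBP4, which encodes a mostly inhibitory binding protein that the protease PAPP-A cleaves, had values of 113, 110 and 112 in control and 142, 136 and 135 in knockdown libraries. The rise was 1.23-fold, from 111.8 ± 1.34 to 137.7 ± 3.87 (SD, n = 3 each; log2 fold change 0.30, SE 0.04, limma adjusted p = 4.67e-06). IGFBP6, whose protein prefers IGF2 over IGF1, was at 44.0, 40.9 and 47.5 in control and at 63.3, 60.6 and 52.4 in knockdown libraries. Knockdown replicate 3 was the lowest of its group for IGFBP6, and the gap of 4.97 between the groups was smaller than the knockdown SD. The mean of IGFBP6 rose 1.33-fold, from 44.1 ± 3.31 to 58.8 ± 5.66 (SD, n = 3 each; log2 fold change 0.41, SE 0.07, limma adjusted p = 8.72e-05). On hg38, IGFBP4 (ENSG00000141753.7) spans 40443450 to 40457725 of chromosome 17, and IGFBP6 (ENSG00000167779.9) spans 53097436 to 53102345 of chromosome 12, both on the plus strand.

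Divided by transcript length, the 4 binding protein genes formed a different mixture in the 2 groups. The length used was that of the longest coding transcript in GENCODE 29, from 1177 bases for IGFBP6 to 2412 for IGFBP3, and the isoforms in use were not measured. Per kilobase, IGFBP3 made up 14.9%, 16.4% and 14.8% of the summed level of the 4 genes in control libraries. It made up 35.0%, 35.4% and 36.4% in knockdown libraries. The share of IGFBP3 thus went from 15.4% ± 0.867 to 35.6% ± 0.712 (SD, n = 3 each), a difference of 20.2 percentage points. The exact two-sided permutation test over the 20 assignments of libraries gave p = 0.1, the smallest that 3 against 3 allow. IGFBP2 went from 23.2% to 5.26% of the sum, IGFBP4 from 35.4% to 32.9%, and IGFBP6 from 26.1% to 26.2%. The summed level per kilobase was 143.7 ± 2.81 in control and 190.2 ± 7.91 in knockdown cells (SD, n = 3 each), 1.32-fold higher. IGFBP4 had the highest level per kilobase of the 4 in control libraries and IGFBP3 in knockdown libraries.

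**Figure D2:**
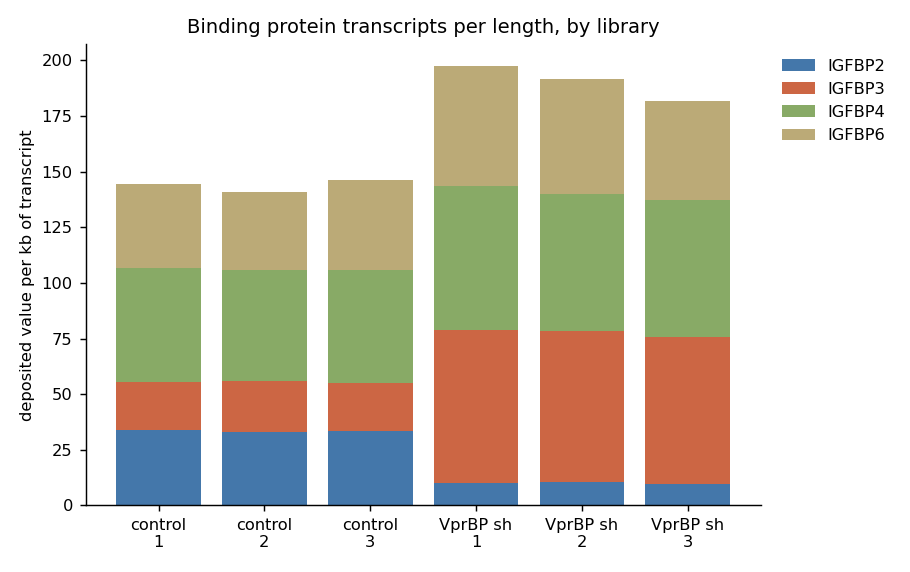
Deposited value per kilobase of transcript (vertical axis, stacked from 0) of IGFBP2, IGFBP3, IGFBP4 and IGFBP6 in each library. The IGFBP2 segment shrinks from 23.2% to 5.26% of the mean stack and the IGFBP3 segment grows from 15.4% to 35.6%, with similar stacks within a group.

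All 3 receptor genes fell, IGF1R most. IGF1R, the receptor tyrosine kinase for IGF1, was at 47.1, 48.3 and 48.8 in control and at 24.6, 26.8 and 25.6 in knockdown libraries. Each knockdown library held close to the group mean, at 53.4% of the control level. The mean fell from 48.1 ± 0.841 to 25.7 ± 1.11 (SD, n = 3 each; log2 fold change -0.89, SE 0.06, limma adjusted p = 1.05e-09), and 4.83% of listed genes had a larger absolute change. IGF1R (ENSG00000140443.15) spans 98648539 to 98964530 on the plus strand of chromosome 15 (hg38).

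INSR, the insulin receptor gene, was at 33.1, 31.6 and 32.2 in control and at 21.2, 21.4 and 19.9 in knockdown libraries. It fell to 64.5% of the control level, from 32.3 ± 0.759 to 20.8 ± 0.854 (SD, n = 3 each; log2 fold change -0.62, SE 0.06, limma adjusted p = 3.16e-07). INSR (ENSG00000171105.14) spans 7112255 to 7294414 on the minus strand of chromosome 19 (hg38). Its products can pair with those of IGF1R as hybrid receptors, so the balance of the 2 transcripts was examined in each library. The INSR to IGF1R ratio of deposited values was 0.703, 0.654 and 0.660 in control and 0.861, 0.799 and 0.775 in knockdown libraries. It was higher in each knockdown library than in any control library, because IGF1R fell by more than INSR. The log2 difference was 0.27 (exact two-sided permutation p = 0.1, the smallest possible). Per kilobase, the mean ratio went from 0.919 ± 0.0362 to 1.11 ± 0.0601 (SD, n = 3 each), and so crossed from below to above equal levels under the lengths used.

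IGF2R, the lysosomal sorting receptor that also removes IGF2, had the highest deposited values of the receptor genes. It was at 224, 209 and 219 in control and at 147, 161 and 157 in knockdown libraries. The fall was the smallest of the 3 receptors, to 71.4% of the control level (217 ± 7.90 against 155 ± 7.13, SD, n = 3 each; log2 fold change -0.49, SE 0.04, limma adjusted p = 4.22e-08). The IGF2R to IGF1R ratio was 4.52 ± 0.221 in control and 6.04 ± 0.0679 in knockdown libraries (SD, n = 3 each). IGF2R (ENSG00000197081.16) spans 159969082 to 160113507 on the plus strand of chromosome 6 (hg38). No exon of IGF2R, IGF1R, INSR or of the 4 binding protein genes overlapped an exon of another gene in GENCODE 29.

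**Figure D3:**
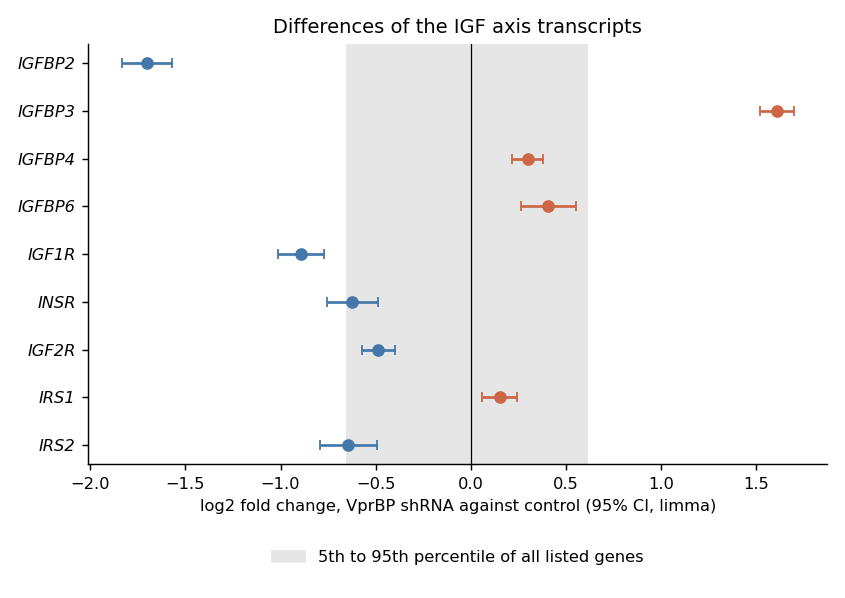
Log2 fold change of VprBP shRNA against control (horizontal axis) for each gene, with 95% confidence intervals from limma and a grey band from the 5th to the 95th percentile of all listed genes (-0.65 to 0.61). IGFBP2, IGFBP3 and IGF1R lie outside the band with their whole intervals, while INSR and IRS2 lie at its edge.

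The docking protein genes parted. IRS2 was at 34.3, 30.6 and 33.7 in control and at 20.4, 22.6 and 19.6 in knockdown libraries. It fell to 63.5% of the control level, from 32.9 ± 1.99 to 20.9 ± 1.57 (SD, n = 3 each; log2 fold change -0.64, SE 0.07, limma adjusted p = 9.39e-07). IRS1 was at 163, 152 and 167 in control and at 174, 188 and 175 in knockdown libraries, with a gap of 6.20 between the groups. Its rise of 1.11-fold, from 161 ± 7.92 to 179 ± 7.96 (SD, n = 3 each), was the smallest change of the 9 genes (log2 fold change 0.15, SE 0.04, limma adjusted p = 0.00648). In fact 62.1% of listed genes had a larger absolute change than IRS1.

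The balance of the docking protein transcripts was steady within a group. The IRS2 to IRS1 ratio of deposited values was 0.210, 0.201 and 0.201 in control and 0.118, 0.120 and 0.112 in knockdown libraries. It was 1.75-fold lower in knockdown cells, a log2 difference of -0.81 (exact two-sided permutation p = 0.1, the smallest possible). IRS1 was the more abundant transcript in every library, so the sum of the values of IRS1 and IRS2 was 194 ± 9.77 in control and 199.7 ± 9.45 in knockdown libraries (SD, n = 3 each). IRS1 (ENSG00000169047.6) spans 226731312 to 226799820 of chromosome 2 and IRS2 (ENSG00000185950.9) spans 109752695 to 109786583 of chromosome 13, both on the minus strand (hg38). An exon of IRS2 overlaps the antisense gene AL162497.1 in GENCODE 29, and reads of the pair cannot be told apart without a stated strand setting.

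**Figure D4:**
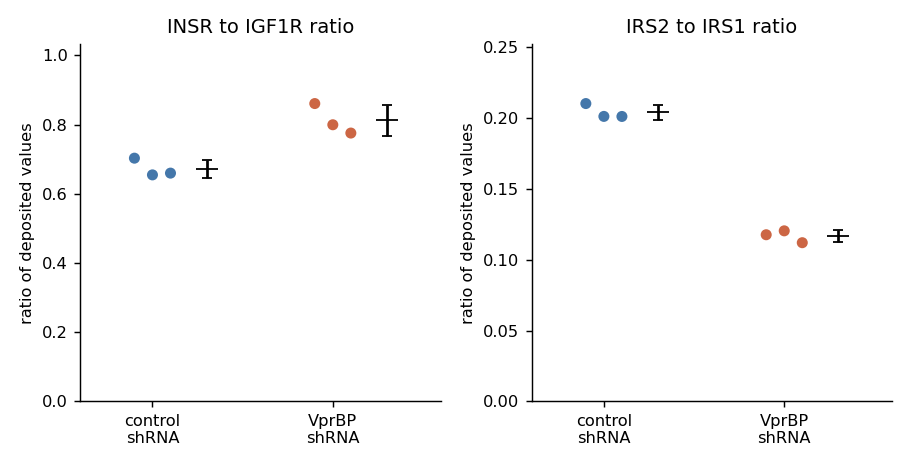
Ratio of deposited values (vertical axes, from 0) of INSR to IGF1R and of IRS2 to IRS1 in each control (blue) and VprBP shRNA (orange) library, with mean ± SD of each group as a black bar. The INSR to IGF1R ratio lies between 0.775 and 0.861 in knockdown libraries, above all controls, and the IRS2 to IRS1 ratio lies between 0.112 and 0.120, below all controls.

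Compared per kilobase within a group, the binding protein transcripts were the most abundant members in control cells. Their control levels per kilobase were 50.8 for IGFBP4, 37.5 for IGFBP6, 33.3 for IGFBP2 and 22.1 for IGFBP3, followed by IRS1 at 16.6 and IGF2R at 15.5. IRS2 at 4.04, IGF1R at 3.93 and INSR at 3.61 closed the order. The libraries overlapped for the neighbours IRS1 and IGF2R and for IRS2 and IGF1R, so these pairs were not ordered beyond their spread. In knockdown cells IGFBP3 stood first at 67.7, followed by IGFBP4 at 62.6 and IGFBP6 at 49.9. IGFBP2, at 10.0, came behind IRS1 at 18.4 and IGF2R at 11.04. The levels of IRS2, INSR and IGF1R were 2.57, 2.33 and 2.10 per kilobase, and neighbours among these 3 differed by little more than the spread of their libraries.

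The genes whose pattern over the 6 libraries was nearest to that of IGFBP3 were CDKN1A, CCN1 and PARP9. Nearness was the Euclidean distance between log2(value + 0.5) profiles centred on their own means, over the 11609 genes averaging 5 or more, and it was 0.0829, 0.117 and 0.118 for these genes. CDKN1A, which encodes the cell cycle inhibitor p21, had means of 12.4 and 39.7 in control and knockdown cells, against 53.3 and 163 for IGFBP3. Nearest to IGFBP2 were KCNK5, PTPRH and ZYX, at distances of 0.0781, 0.127 and 0.142. ZYX, which encodes the focal adhesion protein zyxin, had means of 622 in control and 178 in knockdown cells. With 2 groups, nearness mostly reflects a similar fold change between them.

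Other genes of the pathway were read from 10 lists holding 141 genes, of which 117 were listed in the table. Of these, 34 rose, 52 fell and 31 stayed without a call (list median -0.05 on the log2 scale), against 0.02 over all listed genes. Of the 117 genes, 29.1% rose and 44.4% fell, against 33.0% and 27.8% of all listed genes. The lists were chosen with earlier results of these data known, so nothing particular to the pathway is read from these shares. The only ligand gene listed was IGF2, at 9.83, 10.4 and 9.97 in control and 13.4, 16.3 and 13.4 in knockdown libraries. IGF2 was low and rose 1.43-fold (log2 fold change 0.49, SE 0.09, limma adjusted p = 0.000324). Its exons overlap those of other genes of the same locus, INS-IGF2 among them, so its reads are uncertain. IGF1, INS, IGFBP1, IGFBP5 and IGFBP7 were not analysed here.

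Genes that cut or otherwise control IGFBPs moved in both directions. Of 13 listed IGFBP-cleaving proteases and their inhibitors, 6 rose, 5 fell and 2 stayed without a call (list median 0.09 on the log2 scale). That was 46.2% higher and 38.5% lower, against 33.0% and 27.8% of all listed genes. STC1, whose product inhibits PAPP-A, rose 4.01-fold, from 10.9 ± 0.791 to 43.5 ± 0.504 (SD, n = 3 each). MMP9 rose from 0.157 to 4.99 and MMP1 from 3.36 to 8.83, both from low levels. Every listed gene had 150 or more estimated reads in at least a single library. MMP9 and MMP1 reached that level in knockdown libraries only. Their place in the table, and among the 6 that rose, thus rests on the group where they were higher. HTRA1, a secreted serine protease, was 2.01-fold lower, PLAT, the tissue plasminogen activator gene, was 2.0-fold lower, and the lysosomal protease gene CTSD was 1.51-fold lower. Of 3 listed genes with IGFBP-like proteins, CCN1 and CCN2 rose 3.06-fold and 3.21-fold, and HTRA1, which fell, is the third. That was 66.7% higher and 33.3% lower, against 33.0% and 27.8% of all listed genes. CCN2 was low, at 2.30 in control and 7.40 in knockdown cells, and it too reached 150 estimated reads in knockdown libraries only. Of the mRNA-binding protein genes, IGF2BP3 rose 1.51-fold and IGF2BP2 fell to 149.6 from 167.3.

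Genes next to the receptors moved in both directions, and more of them fell than rose. Of 17 adaptor and docking protein genes, 2 rose, 9 fell and 6 stayed without a call (list median -0.10 on the log2 scale). By share, 11.8% rose and 52.9% fell, against 33.0% and 27.8% of all listed genes. The adaptor gene SH2B2 fell from 9.66 to 5.62, SOS2, a Ras exchange factor gene, from 45.1 to 30.3, and the ubiquitin ligase gene CBL from 137.4 to 105.9. NCK2 and CAV1, which encodes caveolin 1, rose 1.16-fold each. Of 15 genes for receptor inhibitors and phosphatases, 4 rose, 8 fell and 3 stayed without a call (list median -0.12 on the log2 scale). Here 26.7% rose and 53.3% fell, against the 33.0% and 27.8% of all listed genes. Both lists were chosen with earlier results known, so nothing particular to them is read from these shares. SOCS2, which encodes a suppressor of growth hormone and cytokine signalling, rose 2.81-fold, from 11.4 ± 0.515 to 32.1 ± 1.71 (SD, n = 3 each). NEDD4, a ubiquitin ligase gene, rose 1.67-fold and the inhibitory adaptor gene GRB10 rose 1.12-fold. The adaptor gene GRB7 fell from 30.1 to 16.8, and the phosphatase gene PTPRJ from 31.4 to 18.4. ENPP1, whose product inhibits the insulin receptor, fell from 9.41 to 5.42.

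Of 29 PI3-kinase, AKT and mTOR genes, 6 rose, 12 fell and 11 stayed without a call (list median -0.10 on the log2 scale). The 62.1% called was close to the 60.9% of all listed genes. By direction, 20.7% rose and 41.4% fell, against 33.0% and 27.8% of all listed genes. DEPTOR, which encodes an inhibitor bound to mTOR, had the largest absolute log2 fold change of this list, a 6.28-fold fall. It reached 150 estimated reads, as every listed gene did in at least a single library, in control libraries only. The place of DEPTOR in the table thus rests on the group where it was higher. Its values were 12.05, 13.6 and 12.01 in control and 1.83, 1.92 and 2.24 in knockdown libraries (log2 fold change -2.39, SE 0.13, limma adjusted p = 1.53e-10). PHLPP1, an AKT phosphatase gene, fell from 54.1 to 30.4. PIK3CD, a catalytic PI3-kinase subunit gene, rose 1.29-fold, PHLPP2 rose 1.18-fold and the S6 kinase gene RPS6KB2 rose 1.17-fold. AKT1 had means of 288 and 289 and was not called (limma adjusted p = 0.935).

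FOXO transcription factors are held inactive by AKT. Of 13 listed FOXO factors and targets, with the 9 members left out, 9 fell, none rose and 4 stayed without a call. That was 69.2% lower, where 27.8% of all listed genes were lower and 33.0% higher, and the list median was -0.32 on the log2 scale. This list too was chosen with earlier results known. BCL6, a transcriptional repressor gene, fell 4.99-fold, with values of 38.8, 41.6 and 43.0 in control and 9.10, 8.53 and 7.12 in knockdown libraries. PDK4, which encodes a kinase that restrains pyruvate dehydrogenase, fell 3.73-fold, from 16.1 ± 2.10 to 4.33 ± 0.493 (SD, n = 3 each). The factor genes FOXO4, FOXO1 and FOXO3 fell 1.85-fold, 1.64-fold and 1.17-fold. They are counted among the 9 that fell, so that count is not one of targets alone, and FOXO activity was not tested. Among those not called, SESN1 had means of 3.73 and 4.66 and CDKN1B of 27.1 and 29.2.

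The partners of IGF2R in mannose 6-phosphate sorting moved in both directions. Of 16 such genes, 8 rose, 4 fell and 4 stayed without a call (list median 0.12 on the log2 scale). The shares were 50% higher and 25% lower, against 33.0% and 27.8% of all listed genes. M6PR, the gene of the smaller, cation-dependent mannose 6-phosphate receptor, rose 1.32-fold, at 94.0, 91.0 and 92.6 in control and 121, 119 and 126 in knockdown libraries, whereas IGF2R fell. The sorting receptor gene SORT1 rose 1.29-fold and the adaptor subunit gene AP1M1 1.26-fold. SORL1, another sorting receptor gene, fell from 222 ± 0.754 to 118 ± 4.15 (SD, n = 3 each), AP1S1 fell from 82.8 to 68.9 and GGA1 fell from 50.2 to 40.6. Of 9 listed cell-surface and nuclear partners of IGFBPs, 4 rose, 4 fell and 1 stayed without a call (list median 0.02 on the log2 scale). Each direction held 44.4% of this list, against 33.0% higher and 27.8% lower over all listed genes. The integrin genes ITGB1 and ITGA5 rose 1.34-fold and 1.29-fold, and the receptor gene FZD8 rose 1.24-fold. NR4A1, an orphan nuclear receptor gene, fell from 11.4 to 7.33, LRP6 fell from 47.5 to 36.9, and RXRA, a retinoid receptor gene, fell from 64.5 to 56.2.

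**Figure D5:**
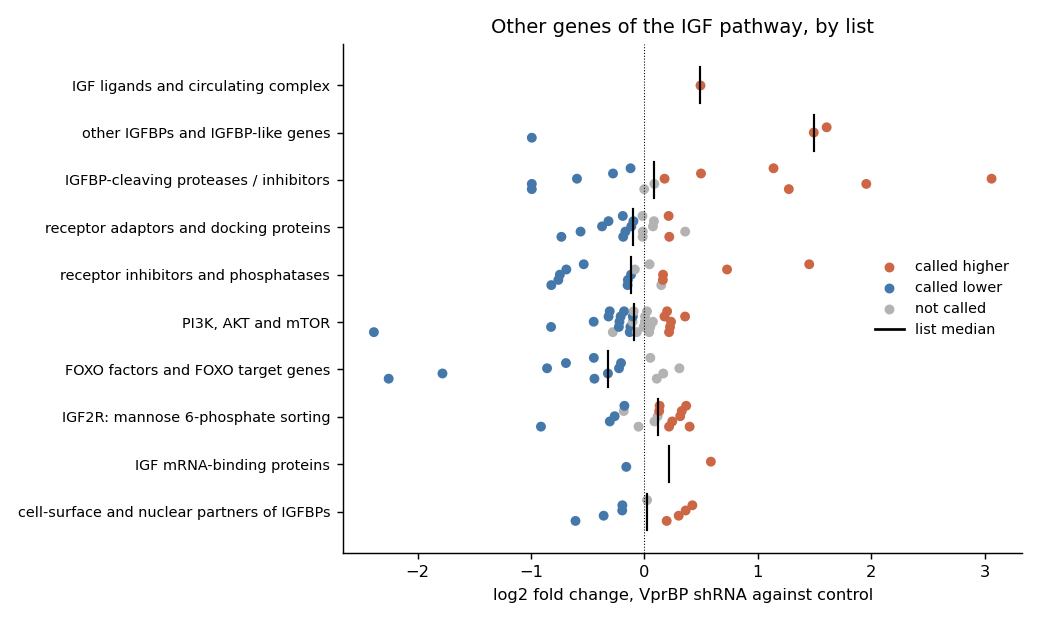
Log2 fold change (horizontal axis) of every listed gene of the 10 pathway lists, called higher (orange), called lower (blue) or not called (grey), with a black line at each list's median. The FOXO list has 9 genes called lower and none called higher. DEPTOR is the lowest point of the PI3-kinase list, at -2.39, and reached 150 estimated reads in control libraries only.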

How the data were processed

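Total RNA was turned into sequencing libraries with a SMARTer kit, per the labels' protocols. Partek and hg38 are named in the submitters' processing notes. The aligner, the counting tool and how values were scaled are not given in these sources. The deposited values are a scaled signal: estimated reads per gene times 1 step per library. Between 55.0% and 65.0% of a library's values were multiples of that step to within 0.02 reads. Reads could thus not be recovered for all genes, and no count model was used in the main fit. Limma-voom on estimated reads was run as an alternative only. Every listed gene had 150 or more estimated reads in at least a single library.

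All 6 libraries entered a limma fit (limma 3.58.1, R 4.3.3) with a trended prior on log2(value + 0.5), a scale that understates changes of low genes. Benjamini-Hochberg adjustment of two-sided p-values covered all 12227 genes, with calls at an adjusted p under 0.05. The procedure was tested on simulated data. Folds are ratios of the group means. Coordinates follow the table, with the end reduced by 1.

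The members and lists were chosen with earlier results of these data known. Named genes are DCAF1, the 9 members, up to 3 called genes of largest absolute change per direction in each list, and the 3 nearest patterns of the members with the largest rise and fall. AKT1, SESN1, CDKN1B, FOXO1 and FOXO3 fall outside that rule and were named after their values were seen, and marker genes were used to check the line. A few genes of the lists are not reported here by name. Alternatives were other scalings, pseudocounts, a mean filter, limma-voom, a replicate block and each library left out.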

Additional observations from a re-analysis of the deposited data

How the results depend on the processing

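All 9 members kept their direction and their call under each of the 13 alternatives to the fit, which were 2 other scalings, pseudocounts of 0.1 and 2, a mean value of at least 5, limma-voom on estimated reads, a replicate block and each of the 6 libraries left out. The log2 fold change ranged from 1.58 to 1.64 for IGFBP3, from -1.76 to -1.61 for IGFBP2 and from -0.93 to -0.86 for IGF1R. IRS1 came nearest to losing its call, with limma adjusted p-values from 0.00239 to 0.0443, the highest without control replicate 2. IGFBP6 ranged from 0.35 to 0.49. With a replicate block, 7042 genes were called instead of 7441, and the deviations of same-numbered libraries correlated at 0.03, -0.18 and -0.17, and not every library correlated best with its own number, so the numbers were not taken as pairs. The block changed no call of a member. Without division by length, the IGFBP3 share of the summed binding protein values rose by 22.9 percentage points instead of 20.2, as follows from weighting longer transcripts more. Other scalings moved the median log2 fold change of all genes from 0.02 to values near 0. They moved the split of called genes from 4037 higher and 3404 lower to 3723 and 3717 with median-ratio scaling and to 3751 and 3681 with library-size scaling. The depth limits what can be said of low genes such as MMP9.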
